A study of Mus musculus with 12 samples.

Results

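The CXC chemokines and their receptors were represented by 10 genes of the 47747 gene symbols in the count table: the receptors Cxcr2 and Cxcr4 and the ligands Cxcl1, Cxcl2, Cxcl5, Cxcl9, Cxcl10, Cxcl12, Cxcl13 and Cxcl16. Members were taken by symbol, and all 10 had a row. Total RNA of the meninges, the membranes around the brain, had been sequenced from 12 C57bl/6 mice. In the DSS group, 6 mice had been given dextran sulfate sodium, a polymer that injures the colon lining and is used to cause colitis, at 2% in their drinking water for 5 days and plain water afterwards. The Control group was 6 mice without DSS. Culling was after 6 days, and the labels do not say from which day that was counted. All mice were of the same strain, no allele or other agent is given, and the labels give neither sex nor age. The comparison asks whether this gene family is expressed differently in the meninges of mice with DSS colitis.

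CXC chemokines are small secreted proteins in which a single residue separates the first cysteines of the chain, and they act on G protein-coupled receptors of leukocytes. Ligands that carry glutamate, leucine and arginine (ELR) just before those cysteines bind CXCR2 and draw neutrophils out of blood. CXCL12, made by stromal and vascular cells, acts on CXCR4 and holds neutrophils, their precursors and B lineage cells in bone marrow, whose channels reach the meninges through the skull. CXCL9 and CXCL10 are induced by interferons and act on CXCR3 of T and NK lymphocytes. CXCL13 acts on CXCR5 of B lymphocytes, and CXCL16, a chemokine with a membrane-anchored form, acts on CXCR6.

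The codons just before the cysteine motif set the ELR ligands of CXCR2 apart from the others, so this stretch is shown for all 8 ligands, as read from the GENCODE M21 transcripts of GRCm38 (mm10). Each run is 42 bases of exon 2 in the coding direction, and the capitals mark the codons at the ELR position followed by those of cysteine, any residue and cysteine.
Cxcl1: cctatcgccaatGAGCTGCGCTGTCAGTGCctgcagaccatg
Cxcl2: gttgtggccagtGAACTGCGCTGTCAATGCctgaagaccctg
Cxcl5: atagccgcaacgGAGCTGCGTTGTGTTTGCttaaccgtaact
Cxcl9: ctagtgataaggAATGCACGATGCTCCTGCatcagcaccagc
Cxcl10: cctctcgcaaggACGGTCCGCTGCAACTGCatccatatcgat
Cxcl12: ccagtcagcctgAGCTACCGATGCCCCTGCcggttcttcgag
Cxcl13: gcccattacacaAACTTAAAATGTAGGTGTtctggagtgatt
Cxcl16: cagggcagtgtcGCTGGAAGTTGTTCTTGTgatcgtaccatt
The ELR codons were found in Cxcl1 (plus strand, chr5:90891475-90891516), Cxcl2 (plus strand, chr5:90904121-90904162) and Cxcl5 (plus strand, chr5:90759706-90759747). They were not found in Cxcl9 (minus strand, chr5:92326830-92326871), Cxcl10 (minus strand, chr5:92348169-92348210), Cxcl12 (plus strand, chr6:117171487-117171528), Cxcl13 (plus strand, chr5:95958643-95958684) or Cxcl16 (minus strand, chr11:70459115-70459156). Of the members, 6 lie on chromosome 5, where Cxcl1 and Cxcl2 are 10.8 kb apart and Cxcl9 and Cxcl10 are 18.6 kb apart. Cxcl10 overlaps Art3 and Cxcl16 overlaps Zmynd15 on the opposite strand. The strand setting of the counting is not given in the sources used here, so reads of these pairs cannot be told apart with certainty.

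Libraries held 13078923 to 28544877 counts in DSS mice and 9312788 to 41869997 in Control mice. Ribosomal RNA features took 60.9% of the counts of Control 2, against 0.167% to 3% in DSS mice and 0.313% to 9.46% in the other Control mice, and library sizes were scaled by TMM factors. The source label of every sample names the colon, while titles and the extraction protocol name the meninges. The summed level of 5 colon epithelium markers was 0.798 to 8.29 CPM (counts scaled to library size) in DSS mice and 1.68 to 5.08 CPM in Control mice, with Cdx2 at 0 counts in all 12. The summed level of 7 fibroblast markers was 6861 to 12330 CPM in DSS mice and 7945 to 11680 CPM in Control mice. Most of that sum came from the collagen genes Col1a2 and Col3a1. DSS 2 carried 153 CPM of 5 skeletal muscle markers, against at most 8.54 CPM in Control mice, and DSS 3 had the lowest neutrophil signal of its group. The summed level of 5 choroid plexus markers ran from 271 to 6981 CPM in DSS mice and from 199.9 to 6900 CPM in Control mice. The DSS minimum was in DSS 4, which also had the highest summed fibroblast (12330 CPM) and border macrophage (677 CPM) markers of all mice. The summed level of 6 osteoblast and marrow stroma markers was 317 to 966 CPM in DSS mice and 482 to 1019 CPM in Control mice. Of these markers, 1 fell and none rose, against 1.26% fallen and 3.68% risen over all genes tested. Transcripts of bone were thus present in the libraries, and their part in the values below was not tested. Values without Control 2, DSS 2 or DSS 3 are given where a call or a direction changed.

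Of the 10 members, 7 passed the filter on low counts and 2 of these rose in DSS mice, both of them receptors, Cxcr2 and Cxcr4. None fell, and the ligands Cxcl9, Cxcl10, Cxcl12, Cxcl13 and Cxcl16 did not pass the test, although Cxcl10, Cxcl12 and Cxcl16 had an unadjusted p under 0.05. Across all 18593 genes tested, 3.68% rose and 1.26% fell, 4.94% in all (edgeR quasi-likelihood test, Benjamini-Hochberg adjusted p under 0.05). An unadjusted p under 0.05 was found for 3525 of these genes, to be set beside such counts here and below. The median log2 fold change of the 7 tested members was 0.31, against -0.02 over all genes tested. Cxcl1, Cxcl2 and Cxcl5, the ligands of CXCR2 in this set, were too low for the test and are described by their counts. These values describe whole tissue, in which fewer cells of a type and less RNA per cell cannot be told apart.

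**Figure D1:**
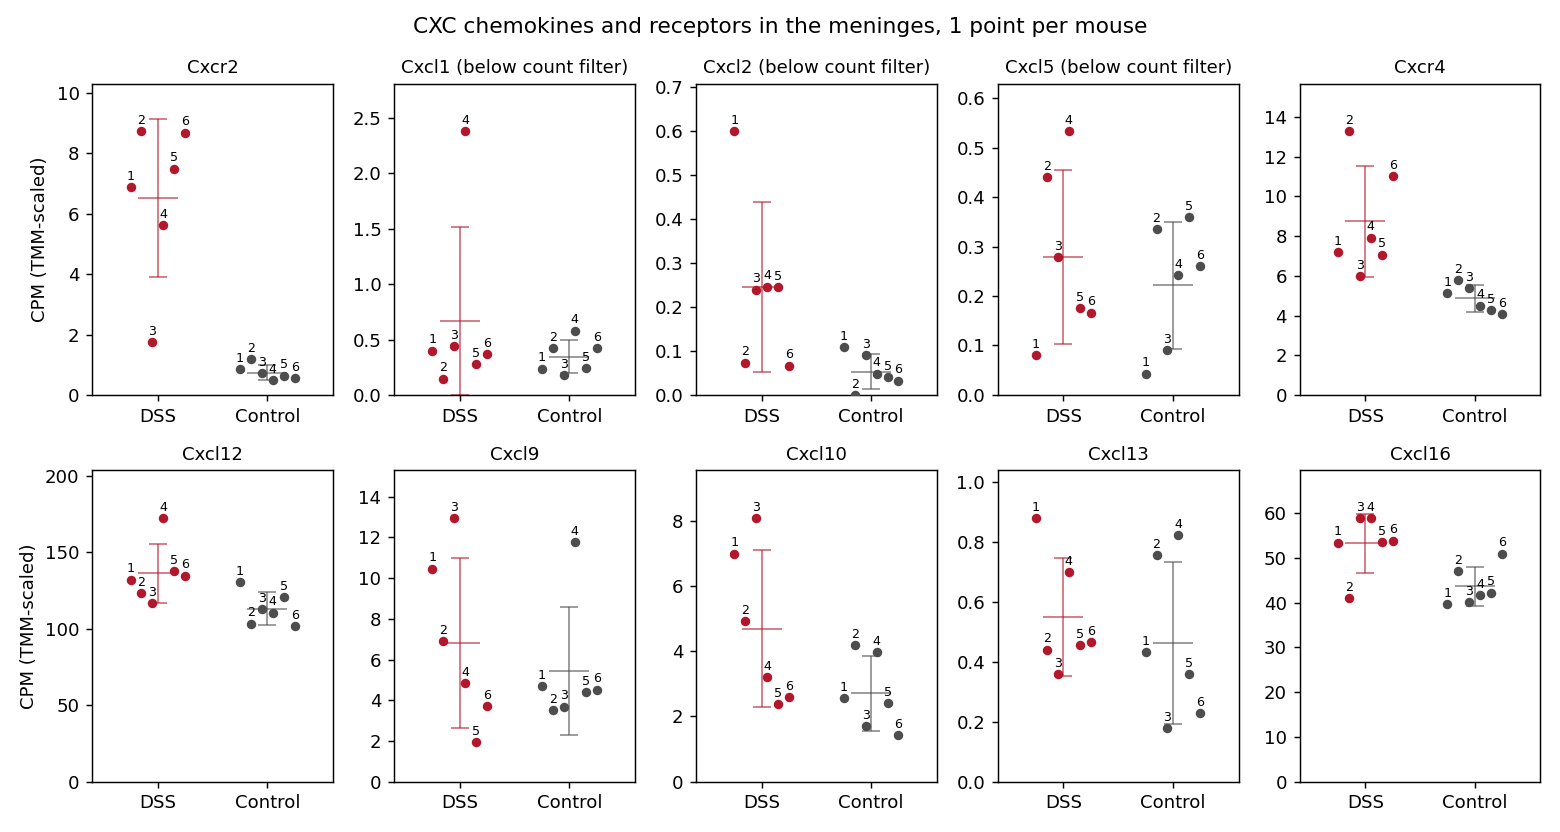
CPM of the 10 members in each mouse, one panel a gene, with DSS mice at the left and Control mice at the right of each panel; points are mice and bars the mean and SD of 6, drawn no lower than 0. The 6 DSS mice lie above all 6 Control mice for Cxcr2 and Cxcr4 and overlap with them for the ligands.

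Cxcr2, the receptor of the ELR ligands on neutrophils, had 6.88, 8.74, 1.75, 5.62, 7.49 and 8.68 CPM in DSS mice 1 to 6, against 0.862, 1.17, 0.719, 0.484, 0.640 and 0.553 CPM in Control mice 1 to 6. Every DSS mouse lay above every Control mouse, a separation found for 2.23% of all genes tested (and its opposite for 0.823%), and DSS 3 was the lowest of its group. Mean levels were 6.53 ± 2.62 CPM in DSS mice and 0.739 ± 0.251 CPM in Control mice (SD, n = 6 each). The log2 fold change was 3.16 ± 0.35 (SE), an 8.96-fold higher level (edgeR quasi-likelihood test, adjusted p = 0.000248). With each mouse left out in turn it lay between 3.06 and 3.36. The gene lies at chr1:74153989-74161246 on the plus strand.

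All 11 neutrophil markers and all 6 granulocyte precursor markers rose with Cxcr2, against 3.68% risen over all genes tested. The summed neutrophil markers had a median of 1113 CPM in DSS mice, from 261 in DSS 3 to 1399, and a median of 95.2 CPM in Control mice, from 68.6 to 201 in Control 2. The summed precursor markers, which include myeloperoxidase and neutrophil elastase, were 12.8 to 97.0 CPM in DSS mice and 3.15 to 9.56 CPM in Control mice. Their part in the change of Cxcr2 was not tested. The log2 ratio of Cxcr2 to the summed neutrophil markers within each mouse averaged -7.30 ± 0.18 in DSS mice and -7.02 ± 0.30 in Control mice (SD, n = 6 each). The difference of -0.27 did not pass the test (exact two-sided permutation test over every division of the 12 mice, p = 0.0736, adjusted over 6 ratios 0.147), and the groups overlapped. Without Control 2 it was -0.33 with an adjusted p of 0.039 by the exact permutation test. Before the log 0.082 CPM was added, which raises the low Control levels of Cxcr2 proportionally more. This makes both differences more negative than those of the plain ratios.

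The profiles over the 12 libraries nearest to that of Cxcr2 were those of Ltf, S100a9 and Ifitm6. Their root-mean-square distances, after each log2 CPM profile was centred and scaled, were 0.137, 0.141 and 0.149, against a median of 1.40 over 12954 genes. The libraries share the treatment groups, so this is a description of how alike the profiles are.

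**Figure D2:**
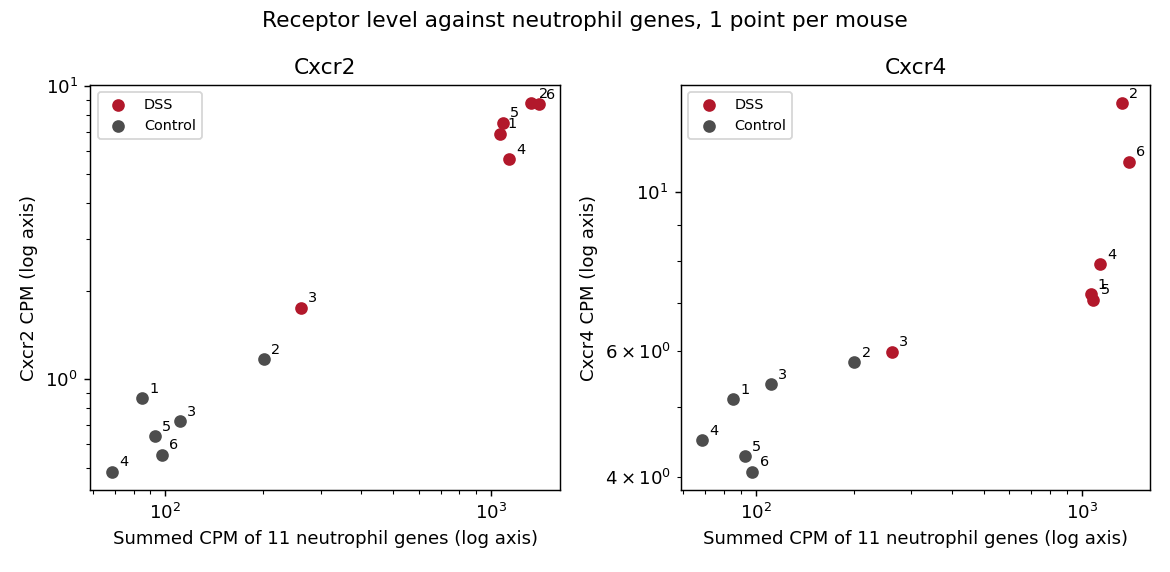
Levels of Cxcr2 and Cxcr4 in CPM against the summed CPM of 11 neutrophil markers, 1 point a mouse, on log axes, with DSS and Control mice in different colours. Both genes and the marker sum are higher in the 6 DSS mice, where the neutrophil sum runs from 261 to 1399 CPM, than in the 6 Control mice, where it runs from 68.6 to 201 CPM.

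The ELR ligands of CXCR2 were at low counts in the meninges of both groups. Cxcl1, a ligand made by stroma, endothelium and macrophages, had 10, 2, 11, 58, 8 and 11 counts in DSS mice 1 to 6, against 11, 5, 2, 12, 6 and 13 counts in Control mice 1 to 6. The DSS sum of 100 counts, against 49 in Control mice, came mostly from DSS 4, whose level of 2.38 CPM exceeded the 0.439 CPM of the next DSS mouse. Cxcl2, a ligand made by macrophages and neutrophils, had 15, 1, 6, 6, 7 and 2 counts in DSS mice, against 5, 0, 1, 1, 1 and 1 counts in Control mice. In 4 of 6 DSS mice its CPM exceeded that of every Control mouse, and the sums were 37 counts in DSS mice and 9 in Control mice. The 0 counts of Control 2 allow up to 0.252 CPM (3 counts, counting error only). Cxcl5, a ligand made by epithelial and stromal cells and by platelets in mice, had 2, 6, 7, 13, 5 and 5 counts in DSS mice, against 2, 4, 1, 5, 9 and 8 counts in Control mice, and the groups overlapped. In a fit with no filter on low counts, over 33641 genes, the log2 fold change of Cxcl2 was 2.02 ± 0.62 (SE; edgeR adjusted p = 0.123). In the same fit that of Cxcl1 was 0.96 ± 0.57 (SE; edgeR adjusted p = 0.511) and that of Cxcl5 0.31 ± 0.54 (SE; edgeR adjusted p = 0.843). None passed the test, though the unadjusted p of Cxcl2 was under 0.05, and this does not show that there was no difference. The log2 ratio of Cxcl1 to Cxcl12 within each mouse was higher by 0.13 in DSS mice (exact two-sided permutation test, p = 0.816, adjusted 0.816) and turned to -0.24 without DSS 4.

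Genes known to induce or amplify CXCR2 ligands were described as a list of 21, of which 17 were tested. Of these, 4 rose and none fell, against 3.68% risen and 1.26% fallen over all genes tested. The median log2 fold change of the list was 0.21. Il1b, the cytokine interleukin-1β, which induces Cxcl1 and Cxcl2 in stroma and endothelium, averaged 4.72 ± 0.69 CPM in DSS mice and 1.65 ± 0.50 CPM in Control mice (SD, n = 6 each; log2 fold change 1.54, edgeR adjusted p = 0.000531). Osm, the cytokine oncostatin M, rose by 1.27 on the log2 scale (edgeR adjusted p = 0.00375), and Tnfrsf1b, a receptor of tumour necrosis factor, by 0.67 (edgeR adjusted p = 0.00313). Nfkbiz, an inducible partner of NF-κB, rose by 0.63 (edgeR adjusted p = 0.00442). Tnf had a log2 fold change of 0.96 and did not pass the test (edgeR adjusted p = 0.0804), and Il17a had 1 count in the whole series. Il1b and Osm are also made by neutrophils and monocytes, whose summed markers were higher in each DSS mouse than in any Control mouse, and the part of those cells was not tested.

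Cxcr4, the receptor of CXCL12, had 7.20, 13.3, 5.98, 7.92, 7.07 and 11.0 CPM in DSS mice 1 to 6, against 5.13, 5.79, 5.39, 4.50, 4.28 and 4.07 CPM in Control mice 1 to 6. All DSS mice lay above all Control mice, a separation found for 2.23% of all genes tested, and DSS 3 lay only just above Control 2. Mean levels were 8.75 ± 2.80 CPM in DSS mice and 4.86 ± 0.68 CPM in Control mice (SD, n = 6 each). The log2 fold change was 0.85 ± 0.19 (SE), a 1.80-fold higher level (edgeR adjusted p = 0.0168), and the adjusted p lay between 0.00761 and 0.0489 with each mouse left out in turn. The gene lies at chr1:128588199-128592293 on the minus strand.

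Cxcr4 differed less between the groups than the neutrophil markers did. The log2 ratio of Cxcr4 to the summed neutrophil markers averaged -6.77 ± 0.70 in DSS mice and -4.39 ± 0.42 in Control mice (SD, n = 6 each). The difference of -2.38 had the smallest p that the divisions of 12 mice allow (exact two-sided permutation test, p = 0.00216, adjusted over 6 ratios 0.013), and the groups did not overlap. The median neutrophil sum was 11.7-fold higher in DSS mice, without overlap of the groups, so this test mainly restates that rise. It does not tell Cxcr4 of neutrophils from that of other cells. DSS 3 had the highest ratio of its group at -5.43, below the lowest Control mouse at -5.10, and the lowest neutrophil sum of its group. The profiles nearest to that of Cxcr4 over the 12 libraries were those of Slc2a3, Ppp2r2a and Prg2, at distances of 0.322, 0.384 and 0.402, farther than the nearest ones of Cxcr2.

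Cxcl12, the stromal ligand of CXCR4, was among the more abundant members and did not pass the test. It had 132, 123, 117, 173, 138 and 135 CPM in DSS mice 1 to 6, against 130, 103, 113, 111, 121 and 102 CPM in Control mice 1 to 6. In 4 of 6 DSS mice the level exceeded that of every Control mouse, and DSS 4, which also had the highest fibroblast sum, was the highest. The log2 fold change was 0.27 ± 0.10 (SE; edgeR adjusted p = 0.129), and 0.19 without DSS 4 (edgeR adjusted p = 0.265). Relative to the summed fibroblast markers, none of whose 7 genes was called with edgeR (2 had an unadjusted p under 0.05 and DESeq2 called 1, all lower in DSS mice), the log2 ratio averaged -6.14 ± 0.22 in DSS mice and -6.42 ± 0.19 in Control mice (SD, n = 6 each; difference 0.28, exact two-sided permutation test, p = 0.0368, adjusted 0.11). Without Control 3 the difference was 0.34 with an adjusted p of 0.0455 by the exact permutation test. Col1a2 and Col3a1 made up most of the sum, so this ratio mainly sets Cxcl12 against collagen transcripts. In DSS 4 they had 8065 and 2504 of 12330 CPM. In that mouse Dcn and Slc47a1 lay below every Control mouse, Apod above every one, and Lum and Pdgfra within their range. Over the 12 libraries the profiles nearest to that of Cxcl12 were those of Clint1, C3ar1 and Ndst1, at distances of 0.351, 0.366 and 0.373. The gene lies at chr6:117168535-117181367 on the plus strand.

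Among 12 genes of the CXCL12 niche, which take part in holding or releasing marrow leukocytes, 2 rose and 1 fell. Over all genes tested, 3.68% rose and 1.26% fell. The median log2 fold change of the niche genes was -0.02. Csf3r, the receptor for granulocyte colony-stimulating factor and also one of the neutrophil markers, averaged 21.8 ± 4.81 CPM in DSS mice and 6.87 ± 1.04 CPM in Control mice (SD, n = 6 each; log2 fold change 1.67, edgeR adjusted p = 0.000172). Vcam1, the endothelial and stromal adhesion molecule, rose by 0.49 on the log2 scale (edgeR adjusted p = 0.0413). Angpt1, a ligand of the endothelial receptor TIE2, fell by 0.43 on the log2 scale (edgeR adjusted p = 0.0404). The call on Vcam1 was kept in 3 of the 12 fits that left out a mouse, those without DSS 2, DSS 3 or Control 4, and that on Angpt1 in the 3 without DSS 2, Control 5 or Control 6.

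**Figure D3:**
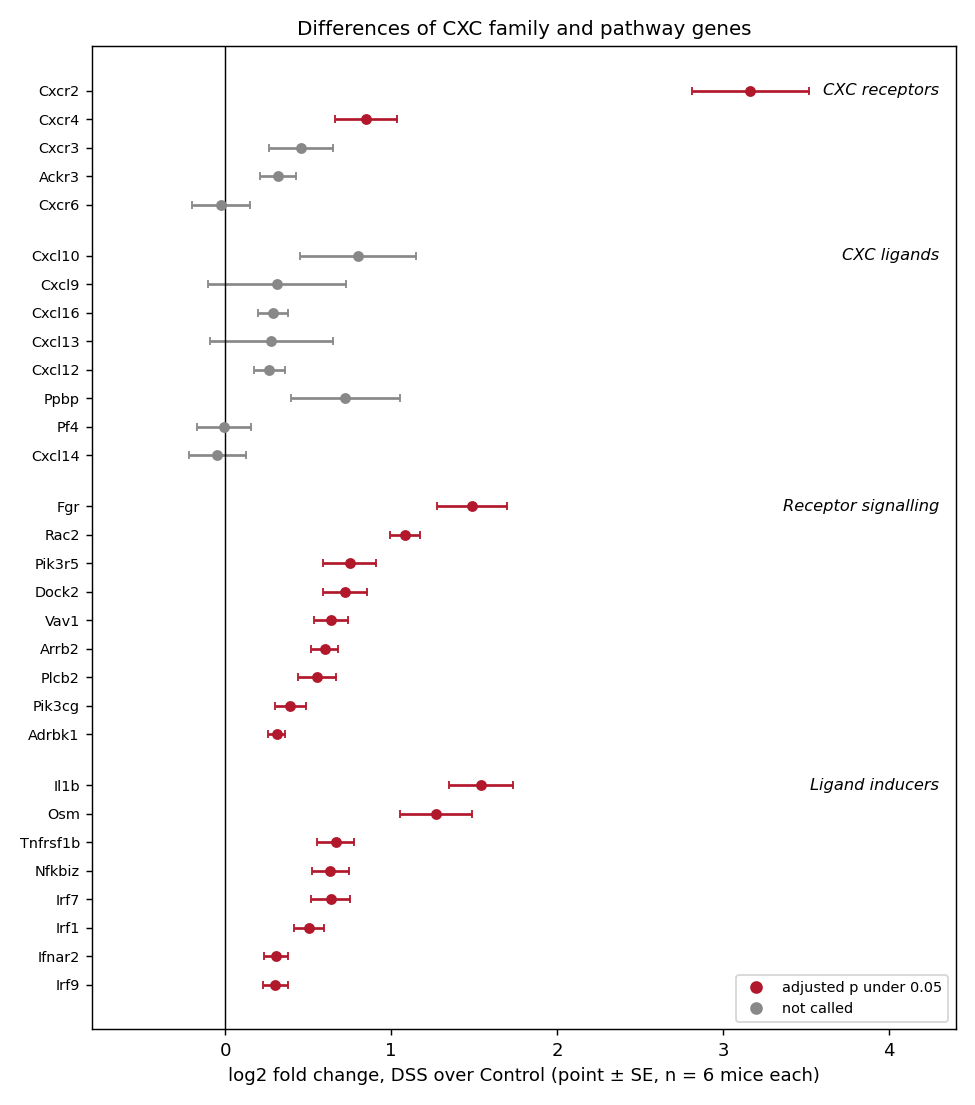
Log2 fold change, DSS over Control, with its SE for the tested genes of the family and for named signalling genes and ligand inducers that passed the test, red where the adjusted p was under 0.05 and grey otherwise; the axis is in log2 units. Cxcr2 at 3.16 stands far above Cxcr4 at 0.85, and the 5 tested ligands among the members lie between 0.27 and 0.80.

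Cxcl9 and Cxcl10, the interferon-induced ligands of CXCR3, varied widely within both groups and did not pass the test. Cxcl9 had 10.5, 6.90, 12.96, 4.84, 1.96 and 3.73 CPM in DSS mice 1 to 6, against 4.70, 3.52, 3.69, 11.8, 4.398 and 4.52 CPM in Control mice 1 to 6. Its log2 fold change was 0.31 ± 0.42 (SE; edgeR adjusted p = 0.762), with Control 4 well above the other Control mice. Leaving out Control 2, DSS 2 and DSS 3 turned it to -0.14. Cxcl10 had 7.00, 4.92, 8.09, 3.20, 2.38 and 2.595 CPM in DSS mice, against 2.57, 4.19, 1.71, 3.97, 2.40 and 1.43 CPM in Control mice. Its log2 fold change was 0.80 ± 0.35 (SE; edgeR adjusted p = 0.226), and 3 of 6 DSS mice exceeded every Control mouse. DSS 1 and DSS 3 were the highest DSS mice for both ligands and DSS 5 the lowest. The log2 ratio of Cxcl9 to Cxcl10 averaged 0.43 ± 0.35 in DSS mice and 0.95 ± 0.67 in Control mice (SD, n = 6 each; difference -0.52, exact two-sided permutation test, p = 0.121, adjusted 0.156). It became -0.76 with an adjusted p of 0.013 by the exact permutation test without Control 2.

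Promoters are printed for Cxcl9 and Cxcl10, since these neighbours had their highest levels in the same DSS mice. They are the 250 bases before the RefSeq start on GRCm38.p6, on the minus strand at chr5:92328080-92328329 and chr5:92348890-92349139, with motif matches in capitals.
Cxcl9: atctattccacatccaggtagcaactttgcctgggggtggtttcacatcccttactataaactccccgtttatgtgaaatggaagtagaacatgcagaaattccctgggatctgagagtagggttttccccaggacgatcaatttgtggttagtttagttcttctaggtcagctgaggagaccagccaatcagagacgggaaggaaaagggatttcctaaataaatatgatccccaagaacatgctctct
Cxcl10: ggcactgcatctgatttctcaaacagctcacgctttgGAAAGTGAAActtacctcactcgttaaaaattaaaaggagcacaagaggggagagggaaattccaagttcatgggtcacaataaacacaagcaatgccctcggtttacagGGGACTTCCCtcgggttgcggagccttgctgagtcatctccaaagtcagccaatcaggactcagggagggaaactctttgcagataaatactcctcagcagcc
RefSeq held such a window for 8 of the 10 members, without Cxcl5 and Cxcl16. The motifs were GGGANTTNCC, a form of the NF-κB site found in 322 of 32851 promoter windows (0.98%), and GAAANNGAAA, a form of the interferon-stimulated response element found in 978 (2.98%). Both strands were searched and the motifs do not overlap in these windows. They were chosen after several had been looked for. The window of Cxcl10 held GGGACTTCCC 103 bases and GAAAGTGAAA 213 bases before the start. The NF-κB form was also present as GGGAATTTCC in the windows of Cxcl1, 71 bases before the start, and Cxcl2, 97 bases before the start. Cxcl9, Cxcr2, Cxcr4, Cxcl12 and Cxcl13 held neither form in this window. A match describes the letters only.

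Among 18 inducers of the CXCR3 ligands, 15 were tested and 5 rose, against 3.68% risen over all genes tested. The median log2 fold change of the inducers was 0.18. Irf7, an interferon-induced transcription factor, averaged 26.0 ± 4.13 CPM in DSS mice and 16.7 ± 2.44 CPM in Control mice (SD, n = 6 each; log2 fold change 0.64, edgeR adjusted p = 0.00653). Irf1, a transcription factor downstream of interferon-γ, rose by 0.51 on the log2 scale (edgeR adjusted p = 0.00549). Ifnar2, a type I interferon receptor chain, rose by 0.31 (edgeR adjusted p = 0.0217), and Irf9, a transcription factor of the type I interferon response, by 0.30 (edgeR adjusted p = 0.0354). The call on Irf9 was kept in 4 of the 12 fits that left out a mouse, those without DSS 2, DSS 5, Control 2 or Control 6. Interferon-γ itself, Ifng, had 0 to 2 counts in DSS mice and 0 to 4 counts in Control mice. The number of inducers that rose depended on single mice. It was 2 without DSS 4, 3 without DSS 1, DSS 6, Control 3 or Control 5, and 8 without DSS 2. None of 6 T and NK markers was called with edgeR, 1 had an unadjusted p under 0.05 and the DESeq2 Wald test called 1, with a summed level of 11.0 to 15.4 CPM in DSS mice and 10.1 to 15 CPM in Control mice.

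Cxcl13, the ligand that draws B lymphocytes through CXCR5, did not pass the test. It was low, with 6 to 22 counts in DSS mice and 2 to 20 counts in Control mice. It had 0.880, 0.441, 0.359, 0.698, 0.455 and 0.466 CPM in DSS mice 1 to 6, against 0.431, 0.755, 0.180, 0.822, 0.360 and 0.228 CPM in Control mice 1 to 6, and the groups overlapped. The log2 fold change was 0.28 ± 0.37 (SE; edgeR adjusted p = 0.764). None of the 5 B lymphocyte markers was called with edgeR, though 4 of 5 had lower levels in DSS mice, 1 of them with an unadjusted p under 0.05, and limma-voom called 2 as lower. Their summed level had a median of 6.76 CPM in DSS mice, from 3.71 to 13.7, and 9.43 CPM in Control mice, from 8.39 to 10.6, and 4 of 6 DSS mice lay below every Control mouse. The log2 ratio of Cxcl13 to that sum averaged -3.50 ± 0.92 in DSS mice and -4.29 ± 0.79 in Control mice (SD, n = 6 each; difference 0.79, exact two-sided permutation test, p = 0.13, adjusted 0.156). That difference holds the lower marker sum of those 4 DSS mice as well as the difference in Cxcl13 itself. The nearest profiles were those of Hs3st3a1, Stat2 and Ubqln2, at distances of 0.533, 0.546 and 0.549. Of 14 organisers of Cxcl13 and lymphoid stroma, 13 were in the table and 10 were tested. Of these 10, 5 had an unadjusted p under 0.05, all with higher levels in DSS mice, against 3525 of all 18593 genes tested. The median log2 fold change was 0.26, and none of the 10 was called with edgeR. That count of 0 depended on the setting: the DESeq2 Wald test and limma-voom each called 2, Map3k14, the kinase of the non-canonical NF-κB pathway, and Ccr7, a chemokine receptor of lymphocytes and dendritic cells. Map3k14 alone was called with DESeq2 size factors, a filter at 1 CPM in 6 libraries, ribosomal RNA features left out, an adjusted p under 0.1, and without DSS 2, without Control 2, or without both, also with DSS 3 removed. Ccr7 alone was called without Control 4. The log2 fold changes with all mice were 0.26 ± 0.07 for Map3k14 (SE; edgeR adjusted p = 0.0533) and 0.98 ± 0.33 for Ccr7 (SE; edgeR adjusted p = 0.105).

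Cxcl16, the ligand of CXCR6 and also a scavenger receptor of macrophages, had 53.4, 41.0, 58.9, 58.9, 53.4 and 53.8 CPM in DSS mice 1 to 6, against 39.7, 47.0, 40.1, 41.7, 42.2 and 50.9 CPM in Control mice 1 to 6. In 5 of 6 DSS mice the level exceeded that of every Control mouse, and DSS 2 lay among the Control mice. The log2 fold change was 0.29 ± 0.09 (SE), 1.22-fold, and did not pass the test (edgeR adjusted p = 0.0854). It passed without DSS 2 (log2 fold change 0.37, edgeR adjusted p = 0.00716) and without Control 6 (0.35, edgeR adjusted p = 0.045). It also passed with the DESeq2 Wald test (0.30, adjusted p = 0.0274) and with limma-voom (0.32, adjusted p = 0.0288). Border macrophage markers had a summed median of 451 CPM in DSS mice and 381 CPM in Control mice. Of these 6 markers, 0 were called with edgeR, 2 had an unadjusted p under 0.05 and DESeq2 called 1. Of 6 monocyte markers, 4 rose, against 3.68% risen over all genes tested. The part of either marker set in the level of Cxcl16 was not tested.

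**Figure D4:**
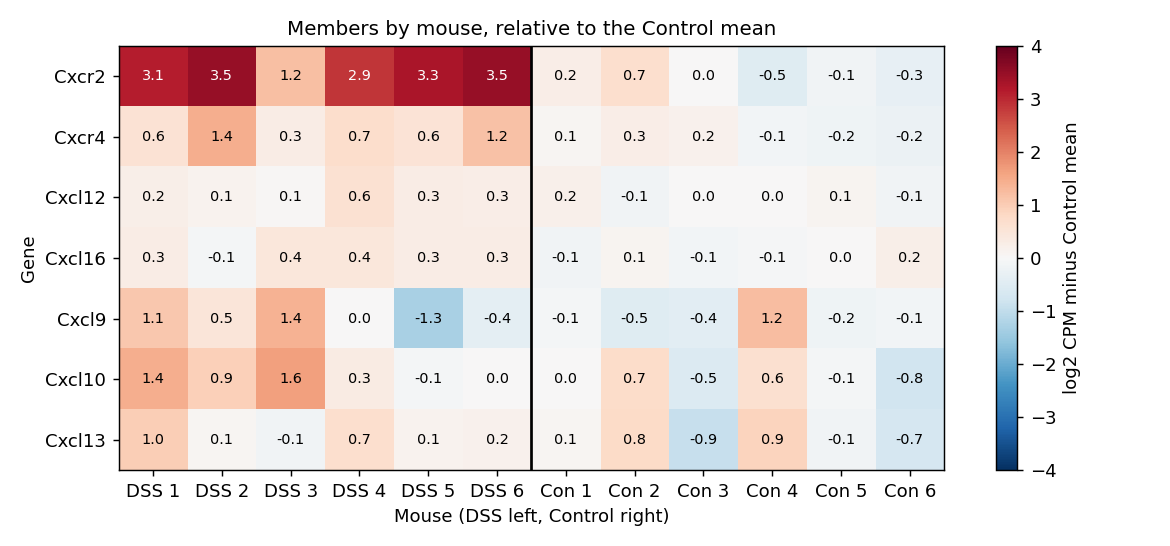
Log2 CPM of the 7 tested members in each mouse minus the mean of the 6 Control mice, DSS mice in the left columns and Control mice in the right columns, with the value written in each cell. DSS 1 and DSS 3 are high for Cxcl9 and Cxcl10 and Control 4 is high for Cxcl9, while Cxcr2 is high in all 6 DSS mice.

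Levels of the members were compared with each other as CPM per kb of exon, a quantity per length. Cxcl16 and Cxcl12 were highest, at 17.6 ± 2.17 and 16.65 ± 2.38 CPM per kb in DSS mice and 14.4 ± 1.47 and 13.9 ± 1.33 CPM per kb in Control mice (SD, n = 6 each), and they overlapped with each other. Cxcr4 came next, at 4.84 ± 1.55 CPM per kb in DSS mice and 2.69 ± 0.38 CPM per kb in Control mice, without overlap with Cxcl12 in Control mice. In Control mice the order went on with Cxcl9, Cxcl10, Cxcl13, Cxcr2, Cxcl1, Cxcl5 and Cxcl2, and each of these overlapped with its neighbour in the order. In DSS mice Cxcr2 reached 2.14 ± 0.86 CPM per kb, between Cxcl9 at 2.26 ± 1.39 and Cxcl10 at 2.09 ± 1.07, while in Control mice it was at 0.242 ± 0.082. Exon length was summed over all annotated transcripts, so it may exceed the length of the transcript in use.

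The rest of the CXC family gave no call with edgeR, DESeq2 or limma-voom, and 1 ligand and 2 receptors had an unadjusted p under 0.05. Of the remaining ligands, 3 of 7 were tested. Pf4, a platelet chemokine that is also among the border macrophage markers used here, had a log2 fold change of -0.01 (edgeR adjusted p = 0.993). The ELR platelet chemokine Ppbp had 0.72 ± 0.33 (SE, edgeR adjusted p = 0.248) and the stromal ligand Cxcl14 -0.05 (edgeR adjusted p = 0.932). Cxcl3 had 0 counts in all 12 mice, Cxcl15 had 1 count in all, Cxcl17 had 0 to 3 counts in DSS mice and 0 to 1 in Control mice. Cxcl11, which GENCODE M21 lists as a polymorphic pseudogene in this strain's reference, had 1 to 4 counts in DSS mice and 0 to 17 in Control mice. Of the remaining receptors, 3 of 5 were tested. Cxcr3, the receptor of CXCL9 and CXCL10, had 2.13 to 4.06 CPM in DSS mice and 1.53 to 2.48 CPM in Control mice (log2 fold change 0.46 ± 0.19, SE; edgeR adjusted p = 0.207). Cxcr6 had a log2 fold change of -0.03 (edgeR adjusted p = 0.964), and Ackr3, the atypical receptor that takes up CXCL12, 0.32 ± 0.11 (SE; edgeR adjusted p = 0.12). Cxcr1 had 1 to 5 counts in DSS mice and 0 to 3 in Control mice, and Cxcr5 had 2 to 25 counts in DSS mice and 0 to 19 in Control mice.

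Atypical receptors, scavengers and proteases that remove or cleave CXC chemokines were all tested. Of these 12 genes 4 rose and 1 fell, against 3.68% risen and 1.26% fallen over all genes tested. The median log2 fold change of the list was 0.07. Ackr1, which binds inflammatory chemokines on venular endothelium and red cells without G protein signalling, had 15.6, 10.9, 7.496, 51.0, 14.9 and 24.95 CPM in DSS mice 1 to 6, against 5.58, 7.55, 4.31, 6.29, 7.40 and 6.44 CPM in Control mice 1 to 6. DSS 3 lay within the Control range and DSS 4, the mouse with the lowest choroid plexus and highest fibroblast and border macrophage sums of its group, was the highest. The part of those tissues in the change was not tested. The log2 fold change was 1.73 ± 0.38 (SE; edgeR adjusted p = 0.017), and 1.24 without DSS 4 (edgeR adjusted p = 0.0172). None of the 6 endothelial markers was called with edgeR, 1 had an unadjusted p under 0.05 and DESeq2 called 0, and their summed level was 496 to 753 CPM in DSS mice and 508 to 689 CPM in Control mice.

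The other genes of that list to rise were granule enzymes that the neutrophil and precursor marker lists also hold. Ctsg, cathepsin G, averaged 6.14 ± 3.25 CPM in DSS mice and 0.352 ± 0.163 CPM in Control mice (SD, n = 6 each; log2 fold change 4.03, edgeR adjusted p = 0.000393). Elane, neutrophil elastase, rose by 3.85 on the log2 scale (edgeR adjusted p = 0.000643), and Mmp8, neutrophil collagenase, by 3.10 (edgeR adjusted p = 0.000845). Mmp9, a gelatinase that neutrophils, osteoclasts and other cells make, averaged 94.4 ± 12.9 CPM in DSS mice and 125 ± 14.9 CPM in Control mice (SD, n = 6 each). It fell by 0.40 on the log2 scale (edgeR adjusted p = 0.035), and the call was kept in 3 of the 12 fits that left out a mouse, those without DSS 3, DSS 4 or Control 6.

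Part of the signalling genes downstream of CXC receptors rose. Of 23 genes of Gi and PI3K-γ signalling, all of them tested, 10 rose and none fell. Over all genes tested, 3.68% rose and 1.26% fell. The median log2 fold change of the signalling genes was 0.24. Rac2, a haematopoietic GTPase of the neutrophil oxidase and of chemotaxis, averaged 39.4 ± 5.38 CPM in DSS mice and 18.6 ± 1.48 CPM in Control mice (SD, n = 6 each; log2 fold change 1.08, edgeR adjusted p = 0.000144). The Src family kinase Fgr rose by 1.49 on the log2 scale (edgeR adjusted p = 0.00122). Arrb2, the arrestin that uncouples and internalises the receptors, rose by 0.60 (edgeR adjusted p = 0.000904), and Vav1, an exchange factor for Rac, by 0.64 (edgeR adjusted p = 0.00253). Adrbk1, the receptor kinase now called GRK2, rose by 0.31 (edgeR adjusted p = 0.00282). Dock2, Plcb2, Pik3r5 and Pik3cg were also among the genes that rose. Leaving out a mouse gave between 9 and 12 risen genes. Many of these genes are used by leukocytes in general, and the part of the higher neutrophil and monocyte marker sums in their change was not tested.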

How the data were processed

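The deposited count table holds the authors' whole-number counts per gene symbol, and their second table is a normalized signal, each count column divided by its median-of-ratios size factor (tested on the values). Per the submitters' processing notes, CASAVA, FastQC, Trim Galore, HISAT2, featureCounts and mm10 were used; for versions, annotation and strand setting: not given in the sources used here. Per the labels' protocols, libraries were stranded total RNA. The 2 tables have 1 column a mouse and 0 columns of no sample.

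Genes were tested with edgeR 4.0.16 in R 4.3.3 (filterByExpr, minimum count 10 and minimum total 15; TMM; quasi-likelihood test, two-sided; Benjamini-Hochberg over 18593 genes, adjusted p under 0.05). The SE of a log2 fold change was taken as its size divided by the root of F. CPM used TMM library sizes, and profiles a log2 CPM with prior count 2. Ratios added 0.082 CPM before the log. Mice count as replicates per the series design. The 30 within-group pairs of libraries were distinct (lowest chi-square per degree of freedom 19.1).

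Members and lists were chosen with earlier results of these data known. Named were all members, all remaining family genes, up to 6 called genes a list by smallest p, and the 3 nearest profiles of Cxcr2, Cxcr4, Cxcl12 and Cxcl13. Dock2, Plcb2, Pik3r5, Pik3cg, Tnf, Il17a, Ifng, Map3k14, Ccr7 and the fibroblast markers were added after their values were seen. GRK2 was looked up as Adrbk1. Some genes counted in the lists are not reported here by name. Of the symbols, 45251 (94.8%) were in GENCODE M21. Of the steps, the edgeR fit alone was tested on simulated data. Alternatives used DESeq2 1.42.0, limma 3.58.1, other filters, scalings and thresholds, a replicate block and left-out mice. Counting intervals and floors cover counting error only.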

Additional observations from a re-analysis of the deposited data

Results flagged for a closer look

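In groups of 6 mice, the highest or lowest mouse was looked at more closely where its gap to the next mouse exceeded 0.625 of the group's range, and 16 of 96 groups of values met this. Chance gives about 1 in 20 for normally distributed values. CPM on a linear scale and groups with few counts depart from that, so no excess over chance is read from this number. Among the members, Cxcl1 was at 2.38 CPM in DSS 4, against 0.439 CPM in the next DSS mouse. Cxcl2 was at 0.6 CPM in DSS 1, against 0.246 CPM in the next DSS mouse. Cxcl9 was at 11.8 CPM in Control 4, against 4.7 CPM in the next Control mouse. Cxcl16 was at 41 CPM in DSS 2, below the next DSS mouse at 53.4 CPM.

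Among the rest of the family, Cxcl15 had 0.0734 CPM in DSS 2 and 0 in the other DSS mice. Cxcl17 had 0.123 CPM in DSS 4 and 0.0899 CPM in Control 3. Cxcr1 was lowest in DSS 6 at 0.0333 CPM and highest among Control mice in Control 2 at 0.252 CPM. All 5 of these values rest on 3 counts or fewer. Cxcr5 stood at 0.997 CPM and Cxcr6 at 5.1 CPM in DSS 3. Among the signalling genes, Vav1 was lowest among Control mice in Control 3 at 9.08 CPM, and Arrb2 was highest in DSS 4 at 42.5 CPM.

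The log2 ratio of Cxcr2 to the neutrophil markers was lowest among DSS mice in DSS 4 at -7.64. That of Cxcr4 was highest in DSS 3 at -5.43, the DSS mouse with the lowest neutrophil sum. That of Cxcl9 to Cxcl10 was lowest in DSS 5 at -0.27. The causes were not tested.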

How the results depend on the processing

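Cxcr2 and Cxcr4 rose under every alternative run, with log2 fold changes of 2.97 to 3.46 and 0.71 to 0.94. Over all genes, 684 rose and 235 fell; the DESeq2 Wald test gave 1036 and 518, limma-voom 479 fallen, no filter 156 fallen, an adjusted p under 0.1 634 fallen, and leaving out each mouse 443 to 989 risen and 95 to 390 fallen. The 2 genes of the related lists that fell became 1 with limma-trend and with no filter, 0 with the replicate block, 0 without Control 2 and DSS 2, 0 without Control 2, DSS 2 and DSS 3 (an alternative chosen after seeing the data), and 0 to 2 with each mouse left out. Cxcl16 passed with the DESeq2 Wald test (0.302), limma-voom (0.323), an adjusted p under 0.1 (0.290), without both mice (0.387) and without the 3 mice (0.373), and ranged from 0.259 to 0.366 with each mouse left out. Cxcl9 turned to -0.136 without the 3 mice. Near 0, Pf4 turned to 0.004 with DESeq2 size factors, 0.003 with the Wald test, 0.039 with limma-voom, 0.002 without ribosomal RNA features, 0.152 without both mice, 0.127 without the 3 mice and ranged from -0.075 to 0.1 with each mouse left out; Cxcl14 turned to 0.071 and 0.082 without those mice (range -0.221 to 0.061); and Cxcr6 to 0.054 without both (range -0.177 to 0.041). Of the log2 ratios, Cxcl13 to B lymphocyte markers passed without the 3 mice (1.532), and Cxcl9 to Cxcl10 without both (-0.772) and the 3 (-0.836). With each mouse left out, Cxcl9 to Cxcl10 ranged from -0.760 to -0.383, Cxcr2 to neutrophil markers from -0.334 to -0.169, Cxcl12 to fibroblast markers from 0.209 to 0.342, and Cxcl1 to Cxcl12 from -0.240 to 0.348. The causes of these shifts were not tested.

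Correlations of same-numbered deviations were -0.189 to 0.154, and only the mice numbered 5 correlated best with their own number. The labels do not say whether equal replicate numbers mark a shared cage or day, and these correlations cannot decide it. With the replicate block, 547 genes rose, 161 fell and 2 members were called. Depth limits Cxcl1, Cxcl2 and Cxcl5, which had 58 counts or fewer in each mouse. It also limits Cxcl13, which passed the filter with 6 to 22 counts in DSS mice and 2 to 20 in Control mice.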
